A study of Mus musculus with 6 samples.

Results

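The fetal and adult isoforms of sarcomere proteins, 10 of the 26012 genes in the deposited table, were followed in infarcted mouse ventricle. They were chosen by name, and all 10 were found: the myosin heavy chains Myh6 and Myh7, the sarcomeric actins Acta1 and Actc1, the troponins Tnni1, Tnni3 and Tnnt2, and the myosin light chains Myl2, Myl4 and Myl7. The hearts came from male C57BL/6 mice that were 8 weeks old at myocardial infarction (MI), which was made by tying the left anterior descending coronary artery. Every heart received an injection into its wall of 10 µg of a synthetic miRNA mimic. In 3 hearts this was a control mimic and in 3 it was the miR-19a/19b mimic. Ventricle was taken on day 4 after MI and its poly-A RNA was sequenced. All 6 hearts were infarcted and injected, so the comparison asks whether the miR-19 mimic changed the isoforms of an injured heart; it holds no measure of an uninjured one. The tissue around an infarct also mixes many cell types, and in such bulk RNA a loss of cardiomyocytes and less RNA per cardiomyocyte cannot be told apart.

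The sarcomere is the contractile unit of striated muscle, in which thick myosin filaments pull on thin actin filaments under the control of the troponin complex. Most of its proteins are made from several genes, and the genes in use change with development. The mouse ventricle moves around birth from Myh7 to Myh6 and from Tnni1 to Tnni3, and atrial light chains that the embryonic ventricle makes (Myl4, Myl7) become confined to the atria while Myl2 marks the ventricle. In a stressed adult ventricle Myh7 and Acta1 rise again together with the natriuretic peptide genes Nppa and Nppb, which is known as the return of the fetal programme.

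The 2 miRNAs that the mimics stand for are shown first, because their seed, the part that pairs with a target mRNA, decides which transcripts could be bound directly. The mature forms are those of RefSeq on the GRCm38.p6 build; the designed sequences of the mimics were not used here. The seed, bases 2 to 8, is in capitals.
mmu-miR-19a-3p: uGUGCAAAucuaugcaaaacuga
mmu-miR-19b-3p: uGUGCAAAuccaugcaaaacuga
The first lies at chr14:115044048-115044070 and the second at chr14:115044358-115044380, both on the plus strand. They differ by 1 base, U11C, counted from 1 at the 5′ end with the miR-19a base first, so they share 1 seed. The seed's complement was searched as the letters TTTGCACA, TTTGCAC or TTGCACA, the last 2 being contained in the first, on the sense strand of the longest annotated 3′ UTR of each gene. None of the 10 isoform genes held any of them, in UTRs of 43 to 406 bases. Of 15820 tested genes with an annotated UTR, 18.4% held a match, in UTRs with a median of 1103 bases. The absence of a match says only that these letters are not in these short windows.

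No isoform passed the test between the groups when all 6 hearts were used. With limma on log2(normalized count + 1) and Benjamini-Hochberg adjustment over the 21126 genes tested, 0 of 10 had an adjusted p under 0.05, against a background of 0% of all genes tested, and 0 of 10 had an unadjusted p under 0.05, against 4.01% of all genes. Both counts were also 0 of 10 with DESeq2 (which gave Myl7 no adjusted p), with edgeR's quasi-likelihood test and with limma-voom on the recovered reads. Of the 21126 genes, those tests in that order gave 29, 0 and 0 with an adjusted p under 0.05. They gave 579, 837 and 821 with an unadjusted p under 0.05, so few that 0 of 10 says little about the isoforms. For none of the 10 were the normalized counts of the 2 groups free of overlap, which was so for 9.20% of all genes tested. The miR-19 hearts lay on both sides of the control hearts. For Myh6, Tnni3, Tnnt2 and Myl2, miR-19 hearts 1 and 2 were above every control heart and miR-19 heart 3 was below every control heart, an order found for 8.55% of all genes tested.

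The libraries held 19398196 to 23645308 reads on genes, and the 10 isoforms took 1.30% of them in miR-19 heart 3 and 3.35% in miR-19 heart 1, with 2.10% to 2.52% in the control hearts. Myh6 rested on 114024 or more reads in every heart, so counting error is small beside the spread between hearts for the abundant isoforms. Other adult cardiomyocyte genes moved with them. A list of 20 such genes that make no sarcomere protein (calcium handling, creatine kinase, myoglobin and the like) had a mean log2 level 0.64 and 0.55 above the control mean in miR-19 hearts 1 and 2 and 0.89 below it in miR-19 heart 3, and 18 of its 20 genes had the order of hearts described above. None of the 20 passed the adjusted test or had an unadjusted p under 0.05, and the largest changes were 0.37 ± 0.52 for the calcium-binding protein gene Hrc, 0.25 ± 0.48 for the creatine kinase Ckm and 0.24 ± 0.37 for Fsd2 (log2 fold change, SE). Mitochondrially encoded genes took 6.86% and 6.93% of reads in miR-19 hearts 1 and 2, 3.18% in miR-19 heart 3 and 4.18% to 5.88% in the control hearts. The within-heart ratios and the levels relative to these 20 genes, both given further on, set the isoforms against cardiomyocyte RNA of the same heart. The part of cardiomyocyte content in the isoform values was not tested otherwise.

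**Figure D1:**
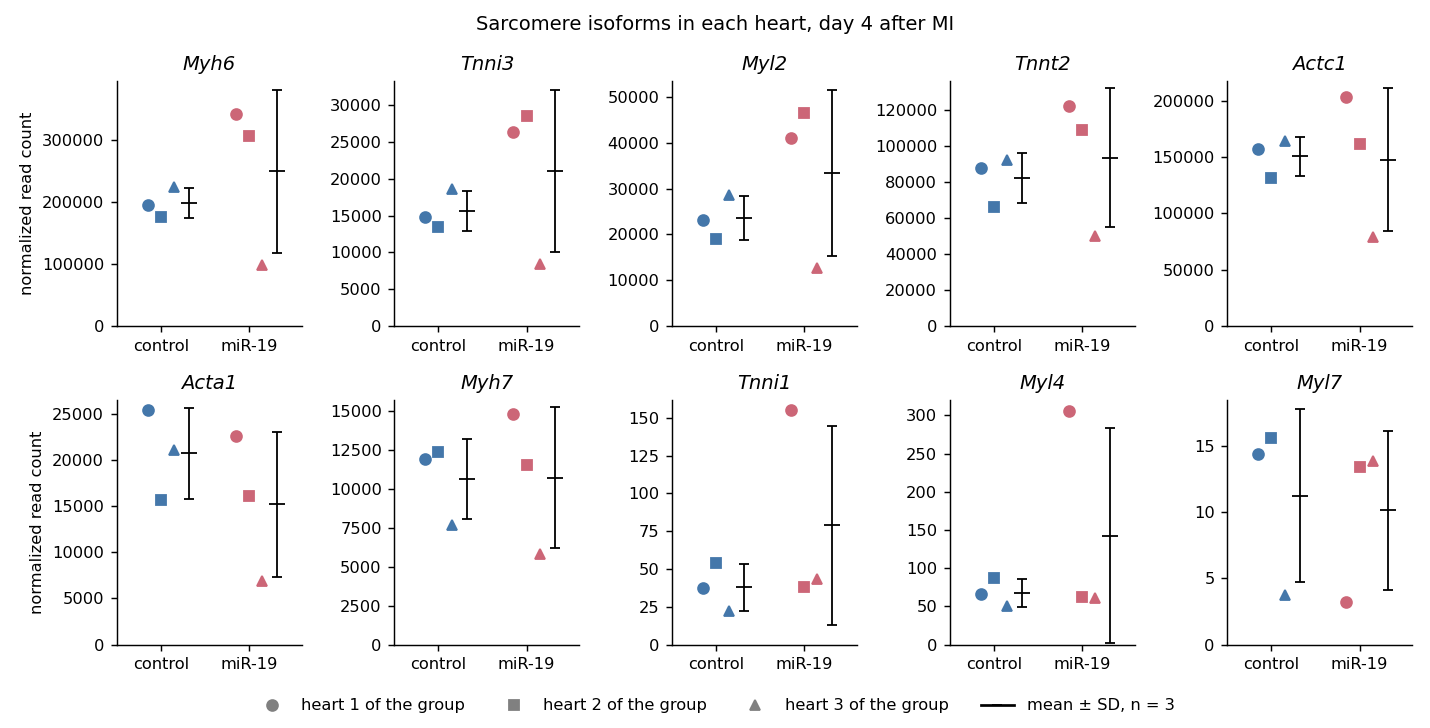
Normalized read counts (vertical axes, starting at 0) of the 10 isoforms in the 3 control mimic hearts and the 3 miR-19 mimic hearts; the marker shape gives the heart's number within its group, and the bars show mean ± SD (n = 3). For Myh6, Tnni3, Myl2 and Tnnt2 the miR-19 hearts lie on both sides of the control hearts, and for Tnni1 and Myl4 miR-19 heart 1 stands alone above the other 5 hearts.

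Myh6 encodes α-myosin heavy chain, the fast motor of the adult mouse heart (chr14:54941981-54966927, minus strand, in the coordinates of the deposited table). Its normalized counts were 194402, 175876 and 224773 in the control hearts and 342545, 306761 and 98566 in miR-19 hearts 1, 2 and 3. The miR-19 hearts thus spanned a 3.48-fold range that held all of the control values inside it. The log2 fold change was 0.14 ± 0.52 (SE, n = 3 per group), with an adjusted p of 1.0 from limma. Myh7, the slower β-myosin heavy chain, lies upstream of Myh6 on the same strand (chr14:54970688-54994634). It had 11911, 12349 and 7670 normalized counts in the control hearts and 14814, 11545 and 5830 in the miR-19 hearts. The lowest control heart and the lowest miR-19 heart were both well under the other 4, and the log2 fold change was -0.06 ± 0.33 (SE), with a 95% interval from -0.80 to 0.69.

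Within each heart, Myh7 ran at a few percent of Myh6 on a per-kilobase scale. The Myh7 to Myh6 ratio per kb of gene length was 4.53%, 5.19% and 2.52% in the control hearts and 3.20%, 2.78% and 4.37% in the miR-19 hearts. Group means were 4.08% ± 1.39 and 3.45% ± 0.825 (SD, n = 3 each), and the groups overlapped. The mean log2 ratio was 0.20 lower in the miR-19 hearts (exact permutation test, two-sided, p = 0.7), and without control heart 2 the difference was 0.0033. A ratio within a heart does not depend on how the library was scaled. The heart with the lowest counts of both heavy chains, miR-19 heart 3, had the highest ratio of its group, while control heart 3 had the lowest ratio of all. The 2 transcripts are 91.7% identical over 5802 aligned bases, so some reads may have been left out or shared in the counting, and Myh7 also overlaps the antisense RNA Mhrt (mean normalized count 427) and hosts Mir208b.

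The α-actins were the pair whose ratio separated the groups. Actc1, the cardiac form that builds most thin filaments of the adult heart, had 156741, 131266 and 164197 normalized counts in the control hearts and 202842, 161238 and 78985 in the miR-19 hearts. Acta1, the skeletal form that is high in the fetal heart and returns under load, had 25422, 15651 and 21040 in the control hearts and 22551, 16111 and 6902 in the miR-19 hearts. Neither gene alone separated the groups. Acta1 had a log2 fold change of -0.58 ± 0.39 (SE; 95% interval -1.47 to 0.31; adjusted p = 1.0 from limma), and Actc1 had -0.13 ± 0.41. Without miR-19 heart 3 the log2 fold change of Acta1 was -0.09. Without miR-19 heart 1 it was -0.95, with an unadjusted p of 0.030 and an adjusted p of 1.0, and Acta1 was then the 1 isoform of 10 with an unadjusted p under 0.05, against 3.87% of all genes tested.

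Taken as a ratio within each heart, Acta1 to Actc1 was lower in all 3 miR-19 hearts than in any control heart. Per kb of gene length it was 18.3%, 13.5% and 14.5% in the control hearts and 12.6%, 11.3% and 9.87% in the miR-19 hearts. The means were 15.4% ± 2.56 and 11.2% ± 1.34 (SD, n = 3 each), a ratio of 0.732 between the groups. The log2 difference was -0.45, and the exact permutation test gave p = 0.1, two-sided, which is the smallest that 3 hearts against 3 allow. With 5 ratios compared, the Benjamini-Hochberg adjusted value was 0.5, so the difference did not pass a threshold of 0.05 and could not have. Leaving out any 1 heart kept the sign, with log2 differences from -0.54 to -0.32. The gap between the groups was small beside the spread: the lowest control heart, at 13.5%, stood next to the highest miR-19 heart, at 12.6%.

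**Figure D2:**
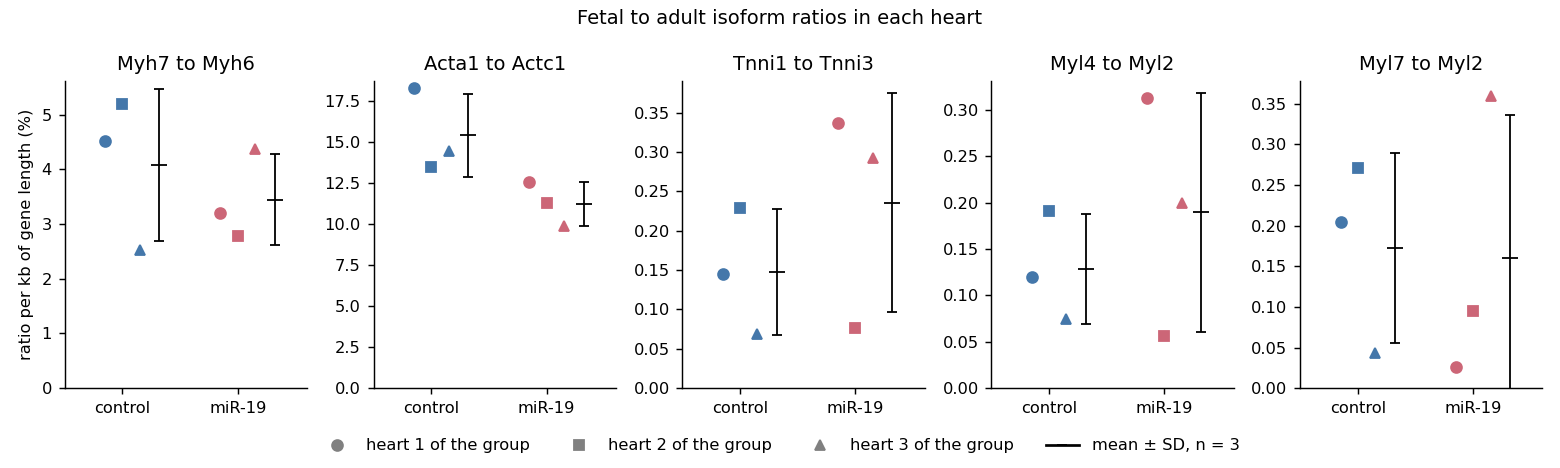
Ratio of the fetal to the adult isoform in each heart, in percent per kb of gene length (vertical axes, starting at 0), for 5 pairs; marker shapes give the heart within its group and bars show mean ± SD (n = 3). Acta1 to Actc1 is the pair whose groups do not overlap (13.5% to 18.3% in control hearts, 9.87% to 12.6% in miR-19 hearts), and the other 4 overlap.

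Acta1 was also lower in the miR-19 hearts when each isoform was set against the other cardiomyocyte genes of its own heart. The Acta1 values are the same as in the Acta1 to Actc1 ratio, so this is not a separate result. Its log2 level minus the mean log2 level of the 20 cardiomyocyte genes was 2.06, 1.64 and 1.62 in the control hearts and 1.29, 0.90 and 1.11 in the miR-19 hearts. It was the 1 isoform of 10 whose groups did not overlap on this scale, against 2.32% of all genes tested. The difference was -0.68, with an SD of 0.25 in the control hearts and 0.20 in the miR-19 hearts. The exact permutation test, two-sided, gave p = 0.1, the smallest that 3 hearts against 3 allow. In the limma fit over all genes on this scale the adjusted p was 1.0. The SE of 0.42 in that fit draws on the spread of other genes and is larger than the spread of Acta1 itself. Myh6 and Tnnt2 varied less on this scale. The 6 hearts spanned 4.95 to 5.21 for Myh6 and 3.65 to 3.96 for Tnnt2, and the difference between group means was 0.04 for Myh6 and -0.00030 for Tnnt2. Myh7 had a spread of its own, from 0.17 in control heart 3 to 1.30 in control heart 2, and the miR-19 hearts lay inside that range. Centring in this way moved the median log2 fold change of all genes from 0.0041 to -0.096.

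**Figure D3:**
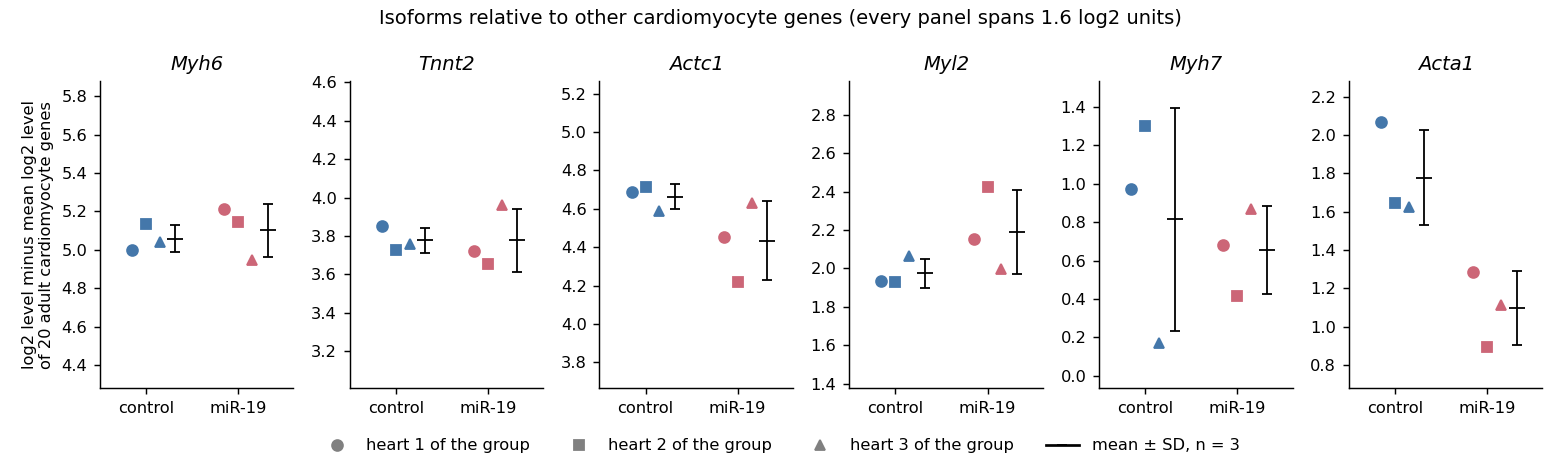
Log2 level of 6 isoforms minus the mean log2 level of 20 adult cardiomyocyte genes of the same heart (vertical axes, each spanning the same distance), in control and miR-19 hearts; bars show mean ± SD (n = 3). The 3 miR-19 hearts lie at 0.90 to 1.29 for Acta1, below the control hearts at 1.62 to 2.06, while for Myh6, Tnnt2, Actc1, Myl2 and Myh7 the groups overlap.

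The start regions of the 2 actin genes are printed because theirs was the ratio that separated the hearts. Each is the 250 bases before the RefSeq start on GRCm38.p6, read 5′ to 3′ along the gene's minus strand, with the CArG box (the SRF binding motif) and the MCAT motif CATTCC, bound by TEAD factors, in capitals.
Acta1, chr8:123894776-123895025: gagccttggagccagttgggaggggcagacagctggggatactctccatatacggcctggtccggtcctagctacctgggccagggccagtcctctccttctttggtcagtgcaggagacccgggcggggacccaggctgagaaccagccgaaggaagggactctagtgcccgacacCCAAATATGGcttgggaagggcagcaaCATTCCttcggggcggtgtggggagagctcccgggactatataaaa
Actc1, chr2:114052876-114053125: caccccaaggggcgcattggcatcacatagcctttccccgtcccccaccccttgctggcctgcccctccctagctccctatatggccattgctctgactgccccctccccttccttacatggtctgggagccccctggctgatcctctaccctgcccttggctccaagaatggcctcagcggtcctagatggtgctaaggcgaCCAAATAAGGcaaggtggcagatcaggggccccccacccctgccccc
Both genes hold a CArG box, CCAAATATGG in Acta1 beginning at base -73 and CCAAATAAGG in Actc1 beginning at base -47, counted from the start. The letters TATAAA, also searched, begin at base -7 in Acta1 and at base 34 in Actc1, past the bases shown. The distances hold for the RefSeq start only, and where transcription begins in these hearts was not tested. Acta1 also holds CATTCC at base -46, and Actc1 does not in this window. With both strands searched over the whole RefSeq window, 250 bases before the start and 50 from it on, a CArG box was found in 3 of the 10 isoform genes (Acta1, Actc1 and Myl7) and in 1.81% of 27025 genes, and CATTCC in 5 of 10 (Acta1, Myh6, Myh7, Myl7 and Tnnt2) and in 16.6% of genes. The motifs do not overlap each other in the Acta1 sequence shown. A match is a run of letters and was not tested for binding. Srf itself had 2500 to 2784 normalized counts in the control hearts and 2871, 2875 and 1987 in the miR-19 hearts.

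The inhibitory troponin subunit holds actin off in the absence of calcium, and its 2 isoforms were far apart in level. Tnni3, the adult cardiac form, had 14799, 13441 and 18680 normalized counts in the control hearts and 26342, 28501 and 8465 in the miR-19 hearts. Tnni1, the slow skeletal form of the fetal heart, had 37.6, 53.7 and 22.4 in the control hearts and 154.9, 38.1 and 43.2 in the miR-19 hearts, from 24 to 144 reads per heart. Tnni1 was thus highest by a wide margin in miR-19 heart 1, and the other 5 hearts were within 22.4 to 53.7. The Tnni1 to Tnni3 ratio per kb was 0.146%, 0.229% and 0.0688% in the control hearts and 0.337%, 0.0767% and 0.293% in the miR-19 hearts. The log2 difference was 0.57 (exact permutation test, two-sided, p = 0.5), with a 4.90-fold range over the 6 hearts, and it was 0.18 without miR-19 heart 1, 0.29 without miR-19 heart 3 and 0.11 without control heart 3. In normalized counts, miR-19 heart 3 had the lowest Tnni3 of all hearts and a Tnni1 within the range of the control hearts. Relative to the 20 cardiomyocyte genes of the same heart the picture was the other way round. On that log2 scale its Tnni3 was 1.41, within the control hearts at 1.28 to 1.45. Its Tnni1 was -6.17, above the control hearts at -8.19 to -6.52. Which of the 2 genes set the ratio thus depended on the scale.

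Tnnt2 encodes cardiac troponin T, which ties the complex to tropomyosin and is used in both the fetal and the adult heart, so it serves here as a member with no switch of gene. It had 87693, 66296 and 92398 normalized counts in the control hearts and 121963, 108798 and 49814 in the miR-19 hearts. Its log2 fold change was 0.10 ± 0.37 (SE), and its sign turned when the values were centred on the cardiomyocyte genes. Tnnt2 does switch by splicing of its exons, which gene totals do not show.

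Myl2, the regulatory light chain of the ventricle, was abundant in every heart. Myl2 had 23222, 19078 and 28517 normalized counts in the control hearts and 41093, 46417 and 12726 in the miR-19 hearts. The atrial light chains were near the floor in all hearts, beside the high Myl2 of ventricle. Myl7 had 3 to 16 reads per heart, or 14.4, 15.6 and 3.7 normalized counts in the control hearts and 3.2, 13.4 and 13.8 in the miR-19 hearts. Myl4, which is atrial and also belongs to embryonic muscle, had 66.3, 86.9 and 50.4 in the control hearts and 305.6, 61.9 and 60.5 in the miR-19 hearts. As with Tnni1, miR-19 heart 1 stood alone, and the other 5 hearts were between 50.4 and 86.9. The Myl4 to Myl2 ratio per kb was 0.120%, 0.191% and 0.0744% in the control hearts and 0.313%, 0.0560% and 0.200% in the miR-19 hearts (exact permutation test, two-sided, p = 0.7). Its log2 difference of 0.34 turned to -0.18 without miR-19 heart 1. The Myl7 to Myl2 ratio ranged 13.8-fold over the hearts, from 0.0260% to 0.359%, a spread far larger than the difference between the groups (exact permutation test, two-sided, p = 0.8), and its log2 difference of -0.48 turned to 0.47 without miR-19 heart 1 and to 0.03 without control heart 2.

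The values of miR-19 heart 1 for Tnni1 and Myl4 came with a skeletal muscle signal. In a 19-gene list of fast and embryonic skeletal muscle markers, 18 genes were highest in that heart and Tnnc2 was listed at 0 in all hearts, and 14 were at least 5 times the next highest heart. The list summed to 5012 normalized counts there and to 339 to 567 in the other 5 hearts. Myh2, Myh4, Myf6 and Chrnd were at 0 in all of the other hearts, and Myh3, the embryonic heavy chain, had 452 in miR-19 heart 1 and 0 to 1.73 elsewhere. Among the highest named markers, Mylpf had 677 in miR-19 heart 1 and 11.3 to 28.5 elsewhere, Tnnt3 had 1032 against 180 to 391, and Tnni2 had 416 against 76.1 to 130. Acta1 and Myh7 are also expressed in skeletal muscle, so their values in miR-19 heart 1 fall under the same limit, and the Acta1 to Actc1 ratio was lower in the miR-19 group with that heart (-0.45) and without it (-0.53). What part the skeletal signal had in Tnni1 and Myl4 was not tested. None of the 18 genes tested passed the adjusted test, and 1 was higher at an unadjusted p under 0.05, against 4.01% of all genes tested. In 2 the groups did not overlap, against 9.20% of all genes tested. Their median log2 fold change was 1.90 with all hearts and 0 without miR-19 heart 1, with 8 then lower and 6 higher. A 15-gene atrial list was also highest in miR-19 heart 1, with a mean log2 level 0.83 above the control mean. It was at 0.14 and -0.03 in miR-19 hearts 2 and 3 and at -0.11 to 0.10 in the control hearts. Its genes did not all move together in miR-19 heart 1, where 7 of them were highest, Myl4 itself and Myh6 among them. Sln had 0 in the control hearts and 96.8, 0 and 0.86 in the miR-19 hearts, and Bmp10 had 0 to 1.08 in all hearts. Myl7 had its lowest value in miR-19 heart 1, at 3.2, and Nppa, at 1317, was below every control heart there. Whether the Sln value came from atrial or skeletal tissue was not tested. Of the 14 tested genes of the 15-gene atrial list, 0 passed the adjusted test and 1, Nppa, was lower at an unadjusted p under 0.05, while Upk3b, a mesothelial gene also used to mark atrial tissue, was at 0.86 ± 0.53.

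The values without miR-19 heart 3 were different. With 2 miR-19 hearts against 3 control hearts, Tnni3 was higher by 0.82 ± 0.15 (log2, SE; adjusted p = 0.023, limma) and Myl2 by 0.91 ± 0.17 (adjusted p = 0.027), so 2 of 10 isoforms passed the test, against 2.44% of all genes tested. Unadjusted, Myh6 and Tnnt2 joined them, making 4 of 10 against 14.5% of all genes. The fetal-type isoforms did not pass: Tnni1 was at 1.09 ± 0.50 with an adjusted p of 0.36, Myh7 at 0.33 ± 0.19 with an adjusted p of 0.49, and Acta1 at -0.09 ± 0.20 with an adjusted p of 0.90. Among the 20 cardiomyocyte genes, Hrc was higher by 1.07 and Ckm by 0.93 in the same fit, both past the adjusted test, as were 9 of the 20. Of the other lists described further on, 8 of 36 sarcomere and Z-disc genes, 2 of 22 regulators of isoform use, 1 of 14 atrial genes and 0 of 16 fetal or stress genes passed it without this heart. The heart carries the miR-19 label and nothing in the labels sets it aside, so the values with all 6 hearts remain the measured comparison.

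**Figure D4:**
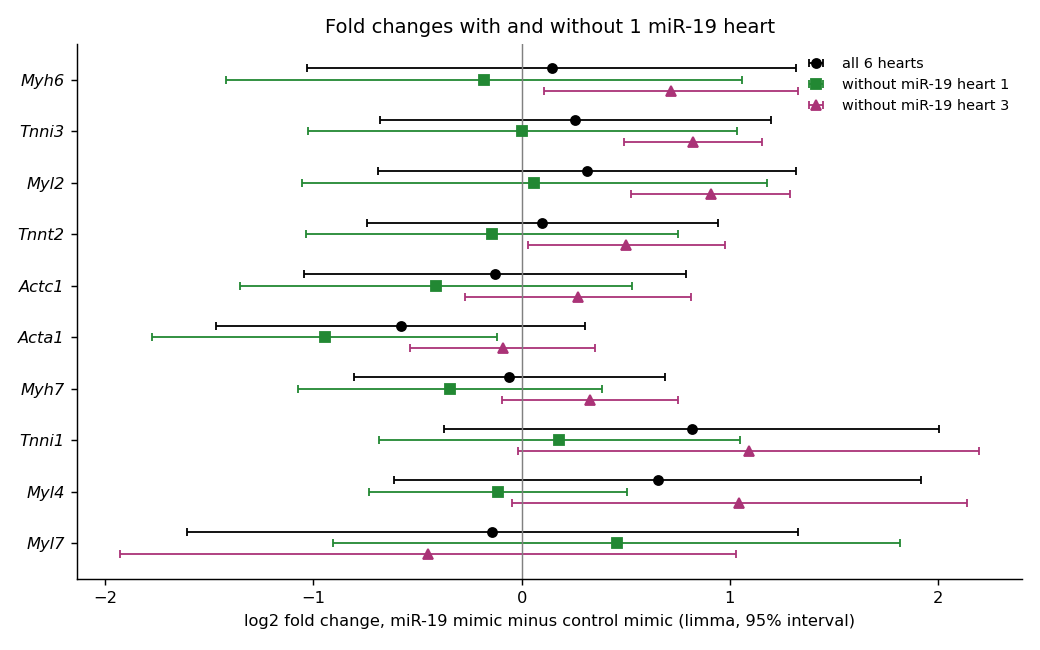
Log2 fold change of each isoform, miR-19 mimic minus control mimic (horizontal axis, limma, 95% intervals not adjusted for multiple genes), with all 6 hearts, without miR-19 heart 1 and without miR-19 heart 3. With all hearts every interval crosses 0; without miR-19 heart 3 those of Myh6, Tnni3, Myl2 and Tnnt2 lie above 0, and without miR-19 heart 1 that of Acta1 lies below 0.

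Per kilobase, the abundant isoforms and the scarce ones formed separate tiers in every heart. Divided by the gene length of the deposited table, the mean over the 6 hearts was 92220 normalized counts per kb for Actc1, 35264 for Myh6, 14620 for Myl2, 12524 for Acta1, 11330 for Tnnt2 and 8905 for Tnni3. Myh7 followed at 1245, below Tnni3 in 6 of 6 hearts with no overlap of their ranges. Myl4, Myl7 and Tnni1, at 22.7, 18.1 and 16.2, overlapped one another and lay far below Myh7. Neighbours within the upper tier overlapped over the hearts, yet Actc1 exceeded Myh6 and Myh6 exceeded Myl2 in 6 of 6 hearts, while Myl2 exceeded Acta1 in 3 and Acta1 exceeded Tnnt2 in 4. The order inside a tier depended on the length used. The table's length for Tnnt2 is 7752 bases and its longest coding transcript in GENCODE M21 is 1200. By transcript length Tnnt2 came second, at 73189 per kb, and Acta1 sixth, at 12411, while Myh7 stayed seventh, at 1715. Among the scarce isoforms, Myl4, Tnni1 and Myl7 were then at 112, 50.7 and 18.1, each above the next in 6 of 6 hearts. By transcript length the Myh7 to Myh6 ratio ran from 3.35% to 6.89% and the Acta1 to Actc1 ratio from 8.90% to 16.5%. The Tnni1 to Tnni3 ratio ran from 0.0952% to 0.466%, Myl4 to Myl2 from 0.126% to 0.701% and Myl7 to Myl2 from 0.0118% to 0.164%. The level of a ratio thus depended on the length used, while the log2 differences between groups stayed the same.

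Among the members, the closest pair over the 6 hearts was Tnni3 and Myl2, whose log2 values, each centred on its own mean, were 0.061 apart (root mean square), followed by Myh6 and Tnni3 at 0.11 and Actc1 and Tnnt2 at 0.13. Tnni1 and Myl4 were 0.21 apart. Between fetal and adult partners, Acta1 lay 0.28 from Actc1 and Myh7 lay 0.39 from Myh6, while Myl4 lay 0.85 from Myl2 and Tnni1 lay 0.88 from Tnni3. Over the 11608 other genes with a mean of at least 100, the nearest to Myh6 were Fgf13, Myl3, Ckmt2, Paqr9 and Asb10, at 0.047 to 0.070. Those nearest to Acta1 were Bdh1, Extl1, Myo5b, Gsg1l and Gm43565, at 0.15 to 0.21, and those nearest to Myh7 were Chac1, Abca8b, Abca8a, Apod and Hlf, at 0.14 to 0.20. Myl7, on its few reads, was nearest to Cxcl5, Ccl7, Ccl2, Il1r2 and Mmp3, at 0.22 to 0.40 over 11609 genes. All of these distances come from the same 6 libraries, in which many genes are low in miR-19 heart 3.

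Most of the remaining sarcomere genes had the order of hearts seen for Myh6, Tnni3, Tnnt2 and Myl2. Of 36 further sarcomere and Z-disc genes, 0 passed the adjusted test, 1 was lower at an unadjusted p under 0.05, and the median log2 fold change was 0.01, beside 0.0041 over all genes tested. The full order, miR-19 hearts 1 and 2 above and miR-19 heart 3 below every control heart, was found in 24 of the 36. Its share over all genes tested was 8.55%. In 34 the lowest value was that of miR-19 heart 3, and in 28 the highest was that of miR-19 heart 1. Myl3, the essential light chain of the ventricle, had 21920, 19949 and 28172 normalized counts in the control hearts and 39391, 37516 and 10917 in the miR-19 hearts. The 3 genes with the largest change were Myh7b, a further myosin heavy chain gene (log2 fold change 0.68 ± 0.50, SE), the skeletal thin filament ruler Neb (0.71 ± 0.71) and the actin-binding protein Xirp2 of the intercalated disc (-0.61 ± 0.27). Xirp2 was the gene with the lower unadjusted p, 0.049. It had 35560, 37131 and 37036 normalized counts in the control hearts and 33564, 25998 and 15601 in the miR-19 hearts, without overlap. Neb was highest in miR-19 heart 1, at 523, and its log2 fold change was -0.21 without that heart.

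Genes that mark the fetal or stress programme mostly had lower means in the miR-19 hearts, though none passed the adjusted test. Of 16, 14 had a log2 fold change below 0 with a median of -0.24, and 0 passed after adjustment over all genes. At an unadjusted p under 0.05, 4 were lower, against 555 of the 21126 genes tested. Some of the 16 stand on other lists too: Xirp2 and Flnc among the further sarcomere genes, Acta2, Tagln and Cnn1 among the smooth muscle genes, and Nppa among the atrial genes. Their calls there are the same calls and not separate ones. In 6 of the 16 the groups did not overlap, against 9.20% of all genes tested. The list was chosen with earlier results of these data known, which limits what such counts can say beside the shares of all genes. Relative to the control mean, the list's mean log2 level was -0.04, -0.23 and -0.52 in miR-19 hearts 1, 2 and 3 and 0.05, 0.01 and -0.06 in the control hearts, so miR-19 heart 1 lay among the control hearts and miR-19 heart 3 was farthest below them. In 8 of the 16 genes miR-19 heart 3 was the lowest heart. Without it, 11 of the 16 had a log2 fold change below 0, with a median of -0.20. At an unadjusted p under 0.05, 5 were then lower, against 1293 of the 21126 genes tested. Nppa, which encodes atrial natriuretic peptide, had 2082, 2555 and 1447 normalized counts in the control hearts and 1317, 1178 and 702 in the miR-19 hearts. All 3 miR-19 hearts were below all 3 control hearts, and the log2 fold change was -0.94 ± 0.26 (SE), with an unadjusted p of 0.0060 and an adjusted p of 0.95 in limma. Nppb, the brain natriuretic peptide gene, had 13359, 13660 and 13436 in the control hearts, which were nearly equal, and 13767, 15849 and 8197 in the miR-19 hearts, with a log2 fold change of -0.15 ± 0.23. Nppb turned to 0.13 without miR-19 heart 3, and Nppa stayed between -1.16 and -0.66 with any 1 heart left out. Cnn1, a calponin of smooth muscle that the embryonic heart also makes, was at -0.62 ± 0.18 with an adjusted p of 1.0 and no overlap.

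The transcription factors, thyroid hormone receptors and splicing factors that set isoform use were then compared. Of 22, 0 passed the adjusted test, 1 was higher at an unadjusted p under 0.05, and their median log2 fold change was 0.01. That gene was Thra, a receptor for thyroid hormone, which raises Myh6 and lowers Myh7, with 1065, 1047 and 1058 normalized counts in the control hearts and 1319, 1299 and 1128 in the miR-19 hearts. The groups did not overlap, and the log2 fold change was 0.24 ± 0.10 (SE; adjusted p = 1.0, limma). Hopx, a homeodomain cofactor of cardiac genes, was at 0.54 ± 0.34 and Nfatc4, a calcineurin-driven factor, at 0.27 ± 0.17, both with overlap. Tead1, which binds the MCAT motif, had 3904, 3601 and 4532 normalized counts in the control hearts and 4534, 3644 and 2776 in the miR-19 hearts.

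**Figure D5:**
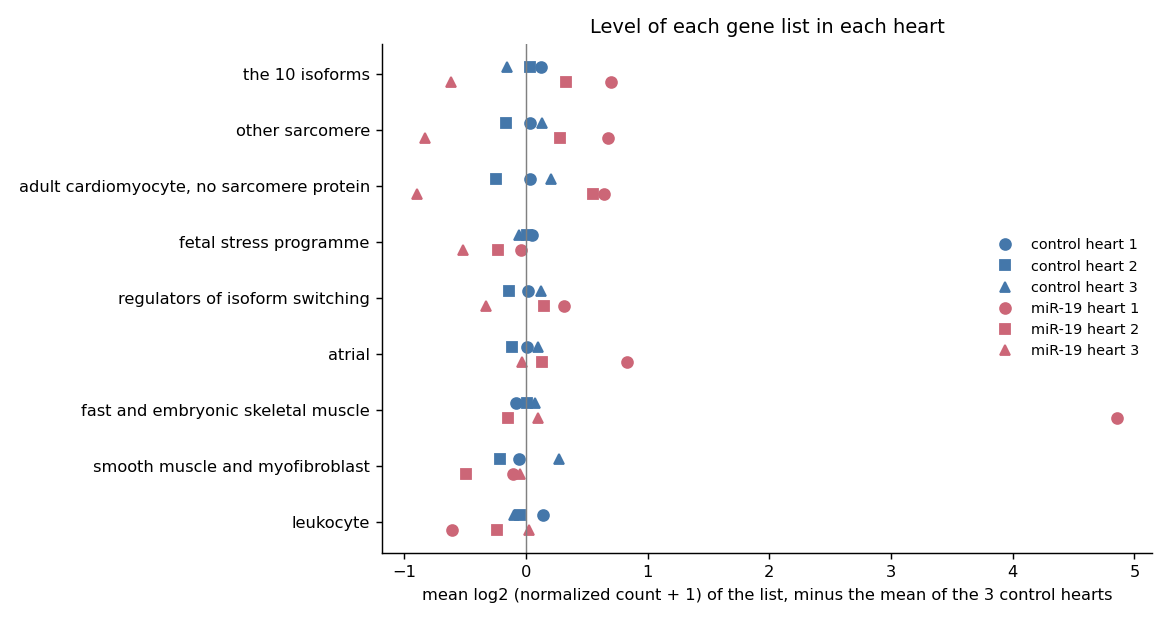
Mean log2 level of each gene list in each heart, minus the mean of the 3 control hearts (horizontal axis); blue points are control hearts and red points miR-19 hearts, with the shape giving the heart's number. miR-19 heart 3 lies lowest for the 10 isoforms (-0.62), the other sarcomere genes (-0.83) and the adult cardiomyocyte genes (-0.89), and miR-19 heart 1 stands at 4.86 for the skeletal muscle list.

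Other cell types of the infarcted wall were checked by their markers. The 10 smooth muscle and myofibroblast genes summed to 515056 to 633610 normalized counts in the control hearts and to 551448, 437155 and 709368 in the miR-19 hearts. The sum, which the most abundant genes weigh most, was highest in miR-19 heart 3, but the mean log2 level was not: it was -0.05 there, relative to the control mean, and 0.27 in control heart 3. The 10 leukocyte genes summed to 54021 to 62001 in the control hearts and to 42581, 50872 and 69286 in the miR-19 hearts. Here too the sum was highest in miR-19 heart 3, while the mean log2 level was 0.02 there and 0.14 in control heart 1. None of these 20 genes passed the adjusted test and 1 of them, Cnn1, was lower at an unadjusted p under 0.05; without miR-19 heart 3, 0 of the 10 smooth muscle and myofibroblast genes and 1 of the 10 leukocyte genes passed the adjusted test. Postn, a matrix protein of activated fibroblasts, was at -0.28 ± 0.25 and Ptprc, the leukocyte marker CD45, at -0.35 ± 0.17, and the other genes of these lists named by the size of their change, Actg2, Adgre1 and S100a8, were at -0.39, -0.29 and -0.38. Their part in the isoform values was not tested. Acta2, the smooth muscle actin of myofibroblasts, had 16127, 12118 and 18460 normalized counts in the control hearts and 13522, 11961 and 16925 in the miR-19 hearts, and its transcript is 85.4% identical to that of Acta1 over 1133 aligned bases, so reads of the 2 could be shared or dropped in the counting.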

How the data were processed

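Poly-A RNA of ventricle from 6 mouse hearts, 3 injected with control mimic and 3 with miR-19 mimic, was sequenced as paired-end reads. The authors aligned the reads with STAR 2.5.1b and counted them per gene with HTSeq 0.6.0, per the submitters' processing notes and the paper's methods; whether strand was used in counting was not given in the sources used here. The deposited values are normalized counts (a signal per gene, size factors 0.905 to 1.16), computed by the authors with DESeq2 1.10.1 as the processing notes name it; the paper names edgeR. All values (100%) came out as whole reads (relative tolerance 1e-05) after division by what 1 read is worth. The notes name build mm9, but of 25884 gene IDs found in GENCODE M21 (GRCm38) 25868 lay on the same chromosome and 82.7% had the same start and end (10 and 7 of the 10 isoforms), so coordinates are those of the table. Columns of the authors' own fold changes and p-values were not used.

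Genes whose mean over the 6 hearts was 1 normalized count or more were tested with limma 3.58.1 (trended prior) on log2(normalized count + 1), which understates changes of low genes, and p-values were adjusted by Benjamini-Hochberg over 21126 genes. Ratios of 2 isoforms were compared by exact permutation tests over hearts (SciPy). Intervals are 95%. Alternatives were DESeq2 1.42.0, edgeR 4.0.16 and limma-voom on the recovered reads, TMM scaling, centring on 20 cardiomyocyte genes, other filters (none, or at least 10 in every heart), a pseudocount of 0.1, a replicate block and leaving out each heart; transcript length in the ratios was added after seeing the data. Code was tested on simulated data. Named genes were the 10 isoforms, Nppa and Nppb, the 3 genes of each other list with the largest change among those with a mean of at least 100, and the 5 genes nearest in pattern to Myh6, Myh7, Acta1 and Myl7; Srf, Tead1, Acta2, Myl3, Sln, Bmp10, Tnnc2 and single skeletal markers were named after their values were seen. The isoforms and gene lists were chosen with earlier results of these data known. The symbol Itgam has 2 rows in the table and the one with the higher mean was used. The labels give the hearts as separate samples, and no 2 hearts of the same group agreed within sampling noise.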

Additional observations from a re-analysis of the deposited data

How the results depend on the processing

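With all hearts, no isoform passed the adjusted test under any alternative listed. The filter of at least 10 in every heart left 9 isoforms to test, without Myl7, and DESeq2 gave Myl7 no adjusted p. With 1 heart left out the count ranged from 0 to 2, the 2 being Tnni3 and Myl2 without miR-19 heart 3. Over all genes tested, adjusted calls numbered 0 in limma, 29 in DESeq2 (28 lower, 1 higher) and 515 without miR-19 heart 3 (154 lower, 361 higher); unadjusted calls numbered 848 with all hearts, 99 after centring on cardiomyocyte genes and 3070 without miR-19 heart 3. Log2 differences in ratio with 1 heart left out ranged from -0.52 to 0.0033 for Myh7 to Myh6, from -0.54 to -0.32 for Acta1 to Actc1, from 0.11 to 1.25 for Tnni1 to Tnni3, from -0.18 to 1.06 for Myl4 to Myl2 and from -1.43 to 0.47 for Myl7 to Myl2. A pseudocount, the ratio of group means or transcript length turned no ratio.

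The log2 fold change of Myh7 was 0.012 in DESeq2 and 0.0063 in edgeR, and that of Tnnt2 was -0.00030 after centring. With 1 heart left out, fold changes ranged from -0.18 to 0.72 for Myh6, from -0.34 to 0.33 for Myh7, from -0.41 to 0.27 for Actc1, from -0.053 to 0.82 for Tnni3, from -0.14 to 0.50 for Tnnt2, from -0.026 to 0.91 for Myl2, from -0.11 to 1.05 for Myl4, from -0.73 to 0.46 for Myl7, from -0.34 to 0.13 for Nppb, from -0.21 to 1.53 for Neb, from -0.093 to 0.93 for Ckm, from -0.046 to 0.75 for Fsd2, from -0.48 to 0.78 for Tnnt3, from -0.58 to 0.64 for Tnni2 and from -0.83 to 0.29 for S100a8. The sign held for Acta1 and Tnni1 under every alternative run. The cause of these turns was not tested beyond the loss of a heart. Same-numbered hearts did not deviate together (correlations -0.0085, -0.021 and -0.11), so the numbers do not pair them; with a replicate block 0 of 10 isoforms passed, and a sign-flip test of the Acta1 to Actc1 ratio, whose 3 pairs had the smallest exact p it allows, gave p = 0.25, with 0.75, 0.75, 1.0 and 1.0 for the other ratios. With 3 hearts a group every value is limited by the spread between hearts, and Myl7, Tnni1 and Myl4 rest on 3 to 284 reads.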
